A study of Mus musculus with 12 samples.

Results

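The data described here concern 10 genes of the ATF4 amino acid stress response, Atf4, Ddit3, Trib3, Chac1, Sesn2, Asns, Aldh18a1, Phgdh, Psat1 and Shmt2, in mouse ear fibroblasts cultured on soft or stiff, elastic or viscoelastic hydrogels. The members were listed by name as integrated stress response genes, and all 10 were found among the 33246 genes of the count table and among the 14542 genes that passed the filter on low counts. The members and the pathway lists below were chosen with earlier results of these data known. The shares of all genes given beside their counts are therefore a description and not an independent test. Primary fibroblasts from the ears of 1-month-old mice, used at passage 2, were grown for 48 h on alginate gels carrying RGD adhesion peptides, and poly-A RNA was sequenced. The 4 groups of 3 samples were 2 kPa Elastic, 20 kPa Elastic, 2 kPa Viscoelastic and 20 kPa Viscoelastic. The study's methods describe C57BL/6 mice of both sexes as the source of the cells; the labels carry no genotype and no treatment apart from the gel. The elastic gels were crosslinked covalently and the viscoelastic gels, of the slow-relaxing kind, ionically, so the crosslinking chemistry and the stress relaxation cannot be told apart. Within each gel type the stiffer gels were made with more crosslinker, per the study's methods, so stiffness and crosslinker concentration cannot be told apart either. Nothing in the labels says whether replicates came from separate animals, so p-values measure the spread between these samples.

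The integrated stress response is a shared pathway by which cells answer amino acid shortage, unfolded protein in the endoplasmic reticulum and other strains. Kinases phosphorylate the initiation factor eIF2, most translation falls, and the mRNA of the bZIP transcription factor ATF4 is translated more. ATF4 in turn raises genes for amino acid synthesis, uptake and tRNA charging, together with regulators that end the response or turn it towards cell death. RNA levels were measured here, not ATF4 protein or eIF2 phosphorylation.

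ATF4 binds DNA as a dimer with C/EBP proteins, at a composite element whose core letters are TGATGNAA, where N is any base. The RefSeq promoter windows (GRCm38.p6, 250 bases before to 50 bases after the start) of all 10 genes were searched for these letters on both strands. The core was present in the windows of 3 members, Asns, Chac1 and Trib3, and not in those of the other 7, while 4.51% of the 27025 gene symbols with a window held it. The 3 windows are shown because they hold the core, and capitals mark the 8 matching bases. Members without a match, such as Atf4 and Psat1, also differed between gels. A match is a description of the letters, and their absence from a window says nothing about the factor.
Asns, chr6:7693160-7693459, minus strand: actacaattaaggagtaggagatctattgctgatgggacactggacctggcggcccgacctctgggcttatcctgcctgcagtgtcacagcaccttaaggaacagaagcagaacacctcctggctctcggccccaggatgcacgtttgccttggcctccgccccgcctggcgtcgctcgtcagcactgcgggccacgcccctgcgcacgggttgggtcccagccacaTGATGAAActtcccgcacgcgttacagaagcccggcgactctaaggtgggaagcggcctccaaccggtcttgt
Chac1, chr2:119350992-119351291, plus strand: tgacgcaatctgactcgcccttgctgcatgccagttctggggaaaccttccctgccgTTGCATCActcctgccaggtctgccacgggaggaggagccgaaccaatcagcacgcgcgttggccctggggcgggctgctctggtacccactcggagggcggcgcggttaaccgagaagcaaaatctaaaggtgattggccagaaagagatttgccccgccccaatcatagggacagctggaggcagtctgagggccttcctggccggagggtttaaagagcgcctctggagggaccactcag
Trib3, chr2:152344011-152344310, minus strand: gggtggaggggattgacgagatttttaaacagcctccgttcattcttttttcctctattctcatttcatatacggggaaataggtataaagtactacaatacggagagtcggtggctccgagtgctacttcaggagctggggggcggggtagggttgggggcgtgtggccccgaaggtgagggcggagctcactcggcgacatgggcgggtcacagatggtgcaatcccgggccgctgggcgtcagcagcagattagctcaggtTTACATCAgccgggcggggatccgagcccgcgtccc
The match lay with its first base at position -23 from the start in Asns and -193 in Chac1, and 15 bases into the transcribed part in Trib3. In Asns the core was read on the strand of the gene, and in Chac1 and Trib3 on the opposite strand.

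Each sample held between 36626221 and 43612804 counts assigned to genes, and the members between 165 and 12504 counts a sample, so that counting error alone was at most 7.78% (CV) and the libraries differed little in depth. Mitochondrial genes took 1.77% to 3.34% of counts and the ribosomal RNA gene Rn18s 0.554% to 1.51%, and on both measures the 2-kPa elastic samples fell inside the range of the other groups. The 8 fibroblast markers summed to between 17340 and 20630 CPM (counts scaled to a library total of 1000000), with Col1a1 at 5686 CPM or more in every sample. Keratinocyte, endothelial, immune, melanocyte, skeletal muscle, Schwann and adipocyte markers summed to at most 7.09 CPM per list, and Tyr was at 0. The 4 chondrocyte markers summed to 4320 to 5893 CPM, led by Col2a1 (2396 to 3471 CPM), and the list was lowest in the 3 samples on 20-kPa elastic gels (4320 to 4365 CPM against 4595 or more elsewhere). In bulk RNA, fewer cells of a type and less RNA per cell cannot be told apart, and the part of these markers in the results was not tested.

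The 10 genes differed in abundance, and they shared one feature across the gels. Per kilobase of exon, the mean level over 12 samples fell from Atf4 (99.3 CPM per kb) through Aldh18a1 (36.8), Asns (35.8), Psat1 (32.7), Shmt2 (23.3), Phgdh (15.1), Sesn2 (10.6), Ddit3 (10.5) and Trib3 (7.44) to Chac1 (4.72). For all 10 members the group with the lowest mean CPM was the 2-kPa elastic gel, which was the lowest group for 24.5% of all genes tested. For 7 members (Atf4, Asns, Psat1, Phgdh, Trib3, Aldh18a1 and Shmt2) every one of the 9 other samples lay above all 3 samples on 2-kPa elastic gels, an arrangement chosen for counting after the values were seen and found for 4.52% of all genes.

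**Figure D1:**
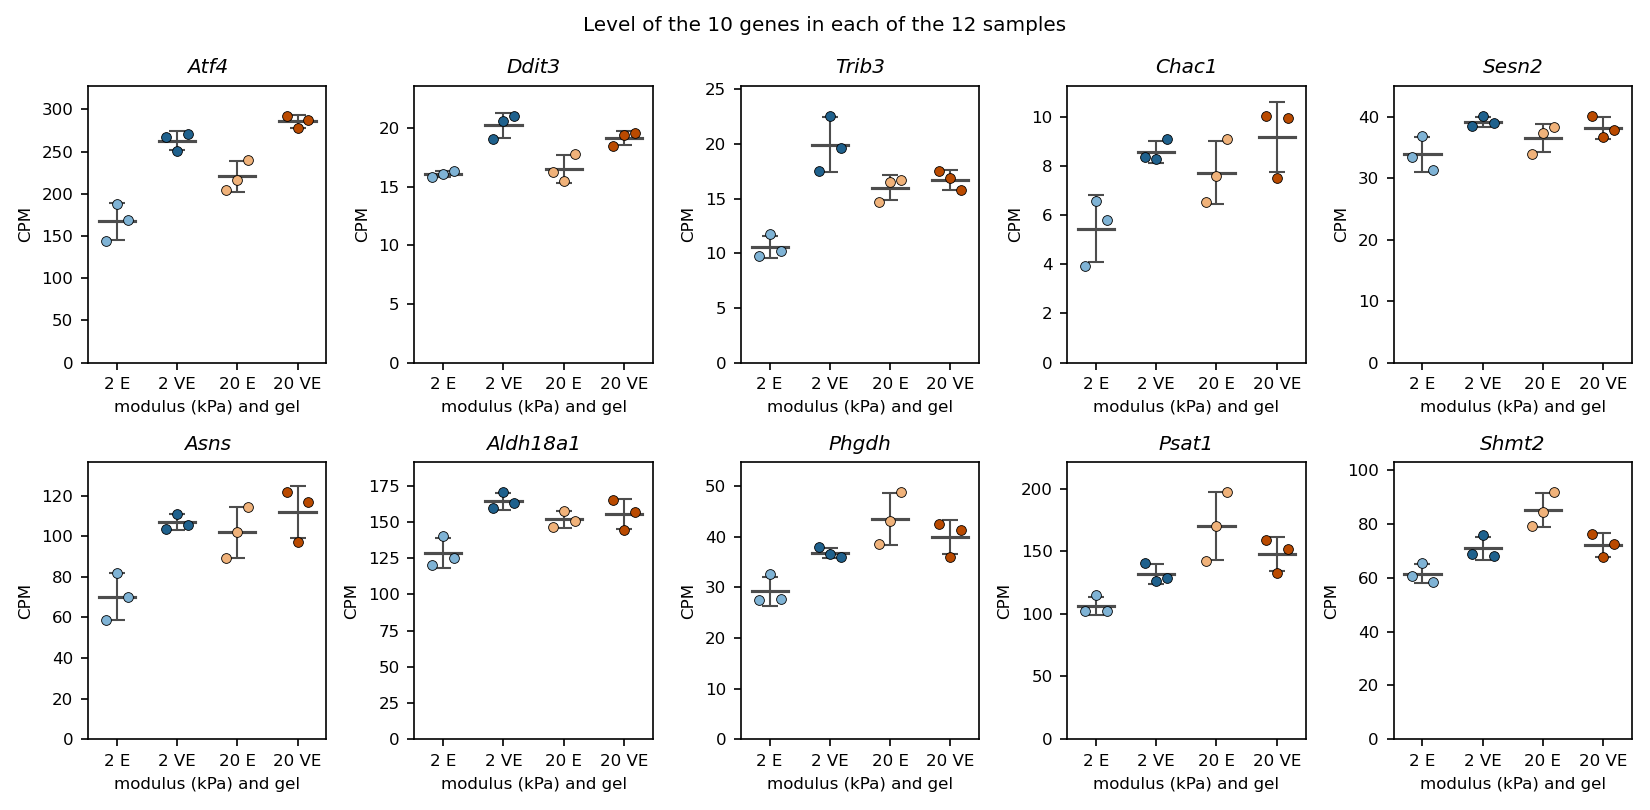
Levels of the 10 genes in CPM (y axis, from 0) for each sample on 2 or 20 kPa elastic (E) or viscoelastic (VE) gels (x axis); points are samples, horizontal lines the mean and bars the SD of 3 samples. The 2-kPa elastic group has the lowest mean in each of the 10 panels, and Psat1, Phgdh and Shmt2 are highest on 20-kPa elastic gels.

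Atf4, the transcription factor of the pathway (chromosome 15, 80255184 to 80257541, mm10), was higher on viscoelastic gels at both stiffnesses. On elastic gels the samples stood at 144.5, 188.3 and 169.1 CPM at 2 kPa and at 204.4, 216.9 and 240.6 CPM at 20 kPa. On viscoelastic gels they stood at 267.3, 250.5 and 271.1 CPM at 2 kPa and at 277.7 to 292.6 CPM at 20 kPa. No 2 of the 4 groups overlapped, and the order was 2-kPa elastic, 20-kPa elastic, 2-kPa viscoelastic and 20-kPa viscoelastic. The share of all genes with 4 separate groups was not counted. In edgeR's quasi-likelihood test over all genes, with Benjamini-Hochberg adjustment, the viscoelastic gel raised Atf4 by 0.65 ± 0.09 (log2, SE; adjusted p = 0.000193) at 2 kPa and by 0.38 ± 0.09 (adjusted p = 0.00397) at 20 kPa. Stiffness raised it by 0.40 ± 0.09 on elastic gels (edgeR adjusted p = 0.00655), and the difference of 0.12 ± 0.09 on viscoelastic gels did not pass (edgeR adjusted p = 0.473).

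Ddit3, which encodes the pro-apoptotic factor CHOP, differed with the type of gel at both stiffnesses. Its levels were 15.9 to 16.3 CPM on 2-kPa and 15.5 to 17.8 CPM on 20-kPa elastic gels, against 19.1 to 21.1 and 18.5 to 19.6 CPM on viscoelastic gels. Every viscoelastic sample was above every elastic sample, and how many of all genes had this arrangement was not counted. The viscoelastic gel raised Ddit3 by 0.33 ± 0.07 at 2 kPa (edgeR adjusted p = 0.00357) and by 0.22 ± 0.07 at 20 kPa (edgeR adjusted p = 0.0219). Offsets for exon length and GC content brought the 2-kPa difference to 0.198 (edgeR adjusted p = 0.0458) and the 20-kPa difference to 0.06 (edgeR adjusted p = 0.491). The log2 differences with stiffness were 0.04 ± 0.07 on elastic and -0.08 ± 0.07 on viscoelastic gels, and neither passed the test. Exons of Ddit3 overlap those of Mars1 on the opposite strand (2820 to 4211 counts a sample, against 595 to 884 for Ddit3). The strand setting of the counting is not given in the sources used here. Another annotated protein-coding gene, also named Ddit3, has overlapping exons on the same strand (105 bases at 100% identity). The values of Ddit3 are uncertain to the extent of both overlaps.

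Trib3, a pseudokinase that restrains ATF4 and CHOP, showed the largest difference of the 10 genes on soft gels. It stood at 9.76, 11.8 and 10.2 CPM on 2-kPa elastic gels and at 17.6, 22.6 and 19.7 CPM on 2-kPa viscoelastic gels. At 20 kPa the elastic samples held 14.7, 16.5 and 16.7 CPM and the viscoelastic samples 17.6, 16.9 and 15.8 CPM. The 2-kPa groups were well separated and the 20-kPa groups overlapped. The viscoelastic gel raised Trib3 by 0.91 ± 0.10 at 2 kPa, a 1.88-fold difference (edgeR adjusted p = 4.43e-05), and the difference at 20 kPa was 0.07 ± 0.10 (edgeR adjusted p = 0.623). Stiffness raised it by 0.60 ± 0.10 on elastic gels (edgeR adjusted p = 0.00137). On viscoelastic gels the log2 difference of -0.25 ± 0.10 had an unadjusted p of 0.0184 in the edgeR fit and an adjusted p of 0.163. The effect of stiffness on Trib3 differed between the gel types by -0.85 ± 0.14 (edgeR adjusted p = 0.00171).

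Chac1 and Sesn2 are stress outputs downstream of the factors. Chac1, a gamma-glutamylcyclotransferase that degrades glutathione, was the least abundant member, with a CV of 25.1% between the samples on 2-kPa elastic gels. Its samples on 2-kPa elastic gels held 3.93, 6.59 and 5.79 CPM, against 8.34, 8.28 and 9.09 CPM on 2-kPa viscoelastic gels. The groups did not overlap, and the viscoelastic gel raised Chac1 by 0.66 ± 0.17 (edgeR adjusted p = 0.0133). On 20-kPa gels it ranged from 6.51 to 9.10 CPM (elastic) and from 7.51 to 10.0 CPM (viscoelastic), which overlapped, and the increase with stiffness on elastic gels, 0.51 ± 0.17, narrowly missed the threshold (edgeR adjusted p = 0.0602). Sesn2, a leucine sensor that restrains mTORC1, ranged from 31.3 to 36.95 CPM on 2-kPa elastic and from 38.5 to 40.1 CPM on 2-kPa viscoelastic gels (0.21 ± 0.07, edgeR adjusted p = 0.0451). Without allowing for the other groups, in a fit of these 6 samples alone, Sesn2 did not pass (edgeR adjusted p = 0.0627).

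Asns, asparagine synthetase, and Aldh18a1, the enzyme that starts proline synthesis from glutamate, rose from the soft elastic gel both with viscoelasticity and with stiffness. Asns held 58.6, 82.1 and 70.1 CPM on 2-kPa elastic gels, 103.8, 111.2 and 105.7 CPM on 2-kPa viscoelastic gels and 89.3, 102.2 and 114.5 CPM on 20-kPa elastic gels. The stiff viscoelastic samples held 121.8, 97.4 and 116.9 CPM. The 3 groups other than the 2-kPa elastic gel overlapped one another, and their neighbouring means did not differ by edgeR's test. The viscoelastic gel raised Asns by 0.61 ± 0.12 at 2 kPa (edgeR adjusted p = 0.00231), and stiffness raised it by 0.54 ± 0.12 on elastic gels (edgeR adjusted p = 0.00638). Aldh18a1 rose from 128.6 ± 10.4 CPM (SD, n = 3) on 2-kPa elastic gels to 164.2 ± 5.78 CPM on 2-kPa viscoelastic gels (0.35 ± 0.07, edgeR adjusted p = 0.0027). It stood at 151.7 ± 5.57 CPM on 20-kPa elastic gels, an increase of 0.24 ± 0.07 over 2 kPa (edgeR adjusted p = 0.0306).

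Phgdh and Psat1 carry out successive early steps of serine synthesis from a glycolytic intermediate, and Shmt2 passes serine into mitochondrial one-carbon metabolism. Unlike the genes above, these 3 had their highest mean on 20-kPa elastic gels. Psat1 held 102.6, 114.9 and 102.2 CPM on 2-kPa elastic gels and 142.4, 170.4 and 197.1 CPM on 20-kPa elastic gels. On viscoelastic gels it held 140.7, 126.2 and 128.6 CPM at 2 kPa and 158.9, 132.3 and 151.7 CPM at 20 kPa. The elastic groups were separate and the viscoelastic groups overlapped. Stiffness raised Psat1 by 0.67 ± 0.10 on elastic gels, the largest of the members in that comparison (edgeR adjusted p = 0.000635), and the viscoelastic gel raised it by 0.31 ± 0.10 at 2 kPa (edgeR adjusted p = 0.0444). Psat1 did not pass at 2 kPa with offsets for exon length and GC content (edgeR adjusted p = 0.0684).

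Phgdh rose from 29.3 ± 2.89 CPM (SD, n = 3) on 2-kPa to 43.6 ± 5.16 CPM on 20-kPa elastic gels (0.57 ± 0.09, edgeR adjusted p = 0.000892), and Shmt2 rose from 61.5 ± 3.50 to 85.3 ± 6.31 CPM (0.47 ± 0.07, edgeR adjusted p = 0.000609). Phgdh was also raised by the viscoelastic gel at 2 kPa, to 36.9 ± 0.988 CPM (0.33 ± 0.09, edgeR adjusted p = 0.0179). Shmt2 was the only member not called there: its samples held 68.2 to 75.9 CPM on viscoelastic and 58.5 to 65.4 CPM on elastic gels, which did not overlap, and the difference was 0.21 ± 0.07 (edgeR adjusted p = 0.052, against 0.0382 with DESeq2's Wald test). At 20 kPa the viscoelastic gel lowered Shmt2 to 72.3 ± 4.31 CPM (log2 difference -0.24 ± 0.07, edgeR adjusted p = 0.0169). Many processed pseudogenes resemble Phgdh, of which Gm7901 drew 8 to 33 counts a sample and the others with counts listed at most 3. Shmt2 overlaps Ndufa4l2 on the opposite strand (110 to 358 counts a sample).

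At 2 kPa, 9 of the 10 members were significantly higher on viscoelastic than on elastic gels and none was lower, beside 8.77% of all genes tested that were higher and 11.1% that were lower. The median log2 difference was 0.34 over the members (range 0.21 to 0.91) and 0.00 over all genes. In all 10 members the 3 viscoelastic samples lay above the 3 elastic samples, as they did in 16.6% of all genes. Leaving out 1 sample at a time gave between 5 members (without 2-kPa elastic replicate 1, the sample with the lowest values for 7 members) and 10. Without 2-kPa elastic replicate 3, or without 2-kPa viscoelastic replicate 3, 6 members were called. Atf4, Asns, Trib3, Ddit3 and Aldh18a1 were called in each of the 12 omissions, Phgdh and Chac1 in 10, and Psat1 and Sesn2 in 4.

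At 20 kPa, 3 members were called, in both directions. Atf4 and Ddit3 were significantly higher on viscoelastic gels, beside 17.4% of all genes, and Shmt2 was lower, beside 16.1% of all genes. The median log2 difference of the members was 0.07, against 0.02 over all genes. Asns (0.14 ± 0.11), Chac1 (0.25 ± 0.16), Trib3 (0.07 ± 0.10, and -0.034 with offsets for exon length and GC content), Sesn2 and Aldh18a1 lay above 0 and Psat1 (-0.20 ± 0.10) and Phgdh (-0.12 ± 0.09) below 0 without passing edgeR's test. Atf4 alone was called in each of the 12 omissions of 1 sample, and without 20-kPa viscoelastic replicate 2 no other member was.

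On elastic gels, 7 members (Atf4, Asns, Psat1, Phgdh, Trib3, Aldh18a1 and Shmt2) were significantly higher at 20 than at 2 kPa and none was lower, beside 6.81% of all genes that were higher and 7.14% that were lower. The median log2 difference was 0.49 over the members and -0.01 over all genes. These 7 were also the members whose groups did not overlap, which held upward for 17.8% of all genes. The number called lay between 6 and 8 in the omissions of 1 sample.

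On viscoelastic gels no member was called for stiffness by edgeR, where 2.28% of all genes were called. Only Trib3 had an unadjusted p below 0.05, which 19.0% of all genes had, and DESeq2's Wald test also called 0 members. The log2 differences ranged from -0.25 to 0.16 with a median of 0.05. Atf4 was the 1 member whose groups did not overlap (250.5 to 271.1 CPM at 2 kPa, 277.7 to 292.6 CPM at 20 kPa), as they did not, upward, in 13.6% of all genes.

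**Figure D2:**
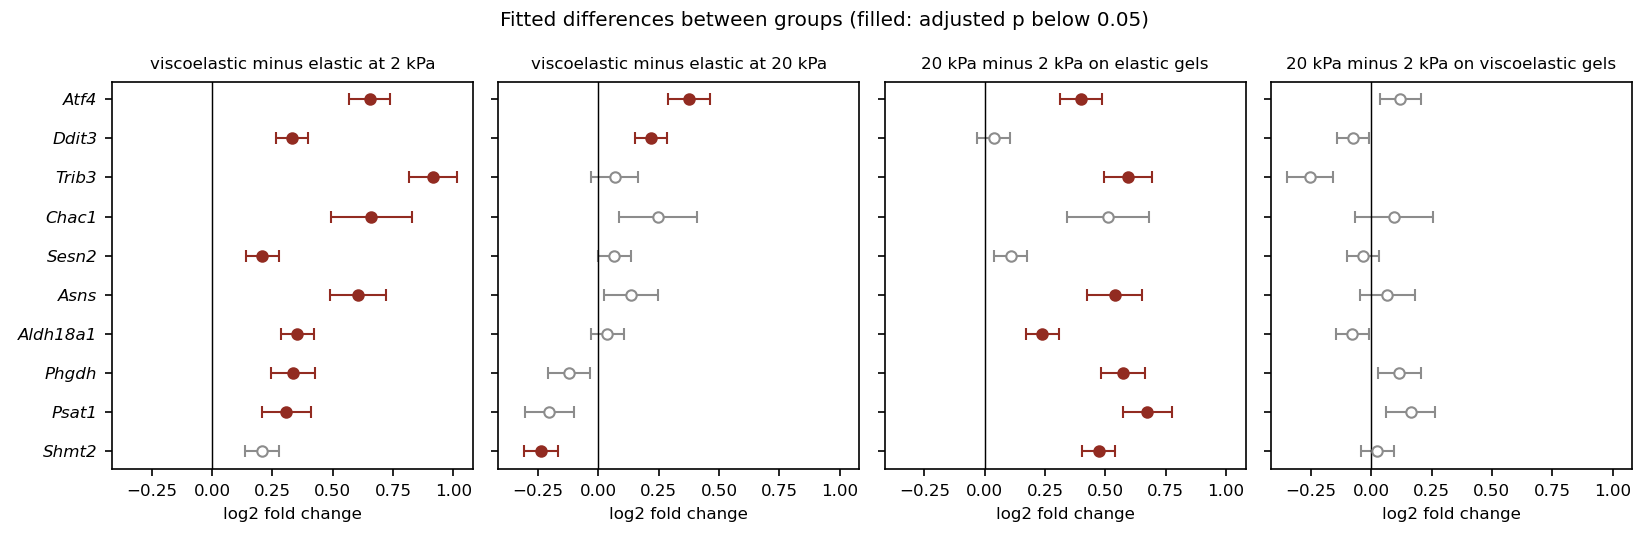
Fitted log2 fold change (x axis) of each gene (y axis) in the 4 comparisons of 2 groups, with bars of 1 SE; filled points have an adjusted p below 0.05 in edgeR's test. Filled points are 9 for the viscoelastic gel at 2 kPa, 3 at 20 kPa, 7 for stiffness on elastic gels and 0 on viscoelastic gels.

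The fitted effect of stiffness was lower on viscoelastic than on elastic gels in all 10 members (median difference -0.43, against 0.02 over all genes). This difference, the gel effect at 2 kPa and the stiffness effect on elastic gels share the samples on 2-kPa elastic gels. They are therefore not separate results. The test of the difference itself was passed by Trib3 (-0.85 ± 0.14), Psat1 (-0.51 ± 0.14), Phgdh (-0.46 ± 0.13) and Shmt2 (-0.45 ± 0.10), where 3.12% of all genes were called in that direction. Trib3 and Shmt2 were called in each of the 12 omissions of 1 sample. The number called fell to 2 without 2-kPa elastic replicate 1 or 3, without 20-kPa elastic replicate 2 or 3, without 2-kPa viscoelastic replicate 1 or 3, and without 20-kPa viscoelastic replicate 2 or 3. Atf4, Asns and Aldh18a1 had unadjusted p-values below 0.05 in the edgeR fit, as did 22.5% of all genes, without passing the adjusted threshold, and Ddit3 had the difference closest to 0 (-0.11 ± 0.09, edgeR adjusted p = 0.529). Averaged over both stiffnesses, the viscoelastic gel raised 7 members (Atf4, Asns, Chac1, Trib3, Ddit3, Sesn2 and Aldh18a1), beside 19.6% of all genes, while the log2 averages of Psat1 (0.05 ± 0.07), Phgdh (0.11 ± 0.06) and Shmt2 (-0.02 ± 0.05, and 0.02 when scaled by total counts alone) did not pass.

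The soft viscoelastic and the stiff elastic gel, which differ in both properties, ordered the members differently. Atf4 (0.25 ± 0.09, edgeR adjusted p = 0.044), Trib3 (0.32 ± 0.10, edgeR adjusted p = 0.0267) and Ddit3 (0.29 ± 0.07, edgeR adjusted p = 0.00659) were higher on 2-kPa viscoelastic gels, beside 10.4% of all genes. Psat1 (-0.37 ± 0.10, edgeR adjusted p = 0.0182) and Shmt2 (-0.27 ± 0.07, edgeR adjusted p = 0.0149) were lower there, beside 12.4% of all genes, and Phgdh had -0.24 ± 0.09 (edgeR adjusted p = 0.0653). Of the 30 pairs of neighbouring group means over the 10 members, 9 differed beyond their spread by edgeR's test, beside 5.98% of such pairs over all genes tested, and 6 of these 9 were steps up from the 2-kPa elastic gel (Atf4, Asns, Psat1, Phgdh, Trib3 and Aldh18a1). The other 3 were the steps from 20-kPa elastic to 2-kPa viscoelastic gels in Atf4, from 20-kPa elastic to 20-kPa viscoelastic gels in Ddit3, and from 20-kPa viscoelastic to 20-kPa elastic gels in Shmt2.

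Within 3 of the 4 gels, 1 replicate held the highest value for most members. Replicate 2 of the 2-kPa elastic gel held the highest value of its group for 9 of 10 members (33.2% of all genes), replicate 3 of the 20-kPa elastic gel for 9 (35.4%), and replicate 1 of the 20-kPa viscoelastic gel for 9 (34.3%). On the 2-kPa viscoelastic gel the highest values were split over the replicates, with 2, 5 and 3 members. Over the 12 samples the Pearson r of log2 CPM between members had a median of 0.758 over 45 pairs, from 0.0592 for Ddit3 with Shmt2 to 0.982 for Psat1 with Phgdh, beside a median of 0.00 over all pairs of tested genes. After each group's mean was taken off, the median was 0.703 and 44 of 45 pairs were above 0, as were 50.1% of all pairs. These points share their library and its depth, and the values are a description of these 12 samples.

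**Figure D3:**
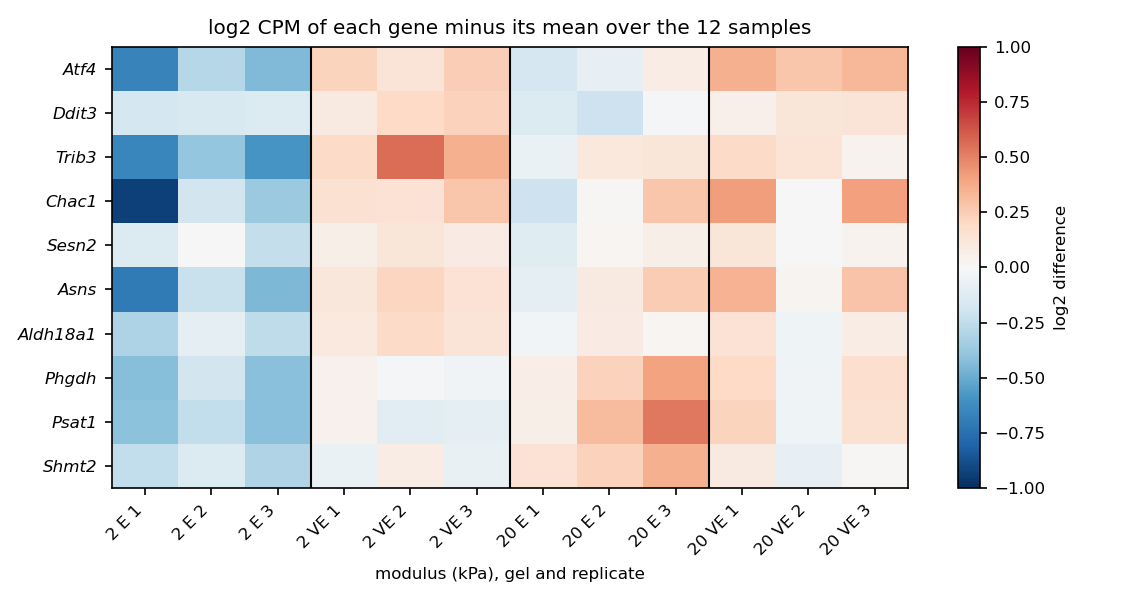
Difference of log2 CPM from each gene's mean over the 12 samples (colour, log2 scale), with genes as rows and samples as columns grouped by gel. All 3 columns of the 2-kPa elastic gel are below the mean in nearly every row, and on 20-kPa elastic gels the highest values are in Psat1, Phgdh and Shmt2.

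The genes whose pattern was most like that of the members were found by correlation. The 5 non-members with the highest r with the members' mean z-score over the 12 samples were Aars, Nars, Cars and Gars, which charge tRNAs with alanine, asparagine, cysteine and glycine, and Pck2, the mitochondrial phosphoenolpyruvate carboxykinase, with r from 0.952 to 0.971. Cars, for example, stood at 68.2 ± 10.6 CPM (SD, n = 3) on 2-kPa elastic gels and at 93.2, 93.4 and 93.2 CPM on average on the 20-kPa elastic, 2-kPa viscoelastic and 20-kPa viscoelastic gels. The 5 most like Asns were Mthfd2, a mitochondrial folate enzyme (r = 0.977), Nars, Tars, Cars and Aars. All of these belong to the 83 tested genes of 6 pathway lists, and 19 of those 83 were among the 100 non-members most like the 10 genes, out of 14532 ranked.

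Over the 6 lists together, 23 of 83 genes were higher and 6 lower on the viscoelastic gel at 2 kPa, beside 8.77% and 11.1% of all genes. On elastic gels 32 were higher and 2 lower at 20 than at 2 kPa, beside 6.81% and 7.14% of all genes. At 20 kPa the gel type gave 14 higher and 16 lower, near the 17.4% and 16.1% of all genes, and stiffness on viscoelastic gels gave 1 higher and 1 lower, beside 2.28% of all genes in either direction. The median log2 difference was 0.10, 0.18, -0.00 and 0.05 in these 4 comparisons, against 0.00, -0.01, 0.02 and 0.01 over all genes.

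The list upstream of ATF4 held 13 genes for eIF2 kinases, eIF2, eIF2B and the eIF2 phosphatase, measured as RNA. At 2 kPa, 2 were higher and 1 lower on viscoelastic gels, beside 8.77% and 11.1% of all genes. On elastic gels, 3 were higher and 1 lower at 20 than at 2 kPa, beside 6.81% and 7.14% of all genes. Eif2s2, the beta subunit of eIF2, was raised in all 4 comparisons, from 97.2 CPM on 2-kPa elastic to 160.3 CPM on 20-kPa viscoelastic gels. Its call for stiffness on viscoelastic gels (0.31 ± 0.07, edgeR adjusted p = 0.0308) was lost in a fit of those 2 groups alone, and without replicate 1 or 3 of either viscoelastic gel. Eif2ak3, the kinase PERK that senses unfolded protein, was highest on 2-kPa elastic gels (85.4 CPM) and was lower on 2-kPa viscoelastic (log2 difference -0.21 ± 0.06, edgeR adjusted p = 0.0148) and on 20-kPa elastic gels (-0.26 ± 0.06, edgeR adjusted p = 0.0066). Ppp1r15b, a regulatory subunit of the eIF2 phosphatase, was lower on viscoelastic gels at 20 kPa (-0.21 ± 0.07, edgeR adjusted p = 0.0379).

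Of the partner and related factors, 8 were tested (Batf2 was under the filter). On viscoelastic gels 5 were higher and 2 lower at 2 kPa, beside 8.77% and 11.1% of all genes. At 20 kPa 5 were higher and 1 lower, beside 17.4% and 16.1% of all genes. Atf5, a close relative of ATF4 that is also under translational control, rose from 110.8 to 197.8 CPM at 2 kPa (0.84 ± 0.07, edgeR adjusted p = 8.32e-06) and from 148.3 to 211.1 CPM at 20 kPa (0.51 ± 0.07, edgeR adjusted p = 0.000173). Atf3, an immediate stress-response factor, went the other way, from 3.17 to 1.87 CPM at 2 kPa (-0.77 ± 0.25, edgeR adjusted p = 0.0427). At 20 kPa Atf3 was also lower on viscoelastic gels (-0.716 ± 0.265, edgeR adjusted p = 0.0497).

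The enzyme list held 17 genes of serine, one-carbon, proline, cysteine and transamination metabolism. On elastic gels 9 were higher and none lower at 20 than at 2 kPa, beside 6.81% and 7.14% of all genes. At 2 kPa 5 were higher and 1 lower on viscoelastic gels, beside 8.77% and 11.1% of all genes. Cth, which makes cysteine, was raised by 0.63 ± 0.13 by the viscoelastic gel at 2 kPa (edgeR adjusted p = 0.00362) and by 0.59 ± 0.13 by stiffness on elastic gels (edgeR adjusted p = 0.00735), and its effect of stiffness differed between gels (-0.67 ± 0.18, edgeR adjusted p = 0.0336). Pycr1, which completes proline synthesis, followed the gel type, at 21.8 and 21.6 CPM on elastic and 29.4 and 27.8 CPM on viscoelastic gels at 2 and 20 kPa. Shmt1, the cytosolic counterpart of Shmt2, was lower on viscoelastic gels at both stiffnesses (-0.30 ± 0.10 and -0.38 ± 0.09).

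Of the 20 cytosolic aminoacyl-tRNA synthetases, 11 were higher at 20 than at 2 kPa on elastic gels and none was lower. The shares of all genes there were 6.81% and 7.14%. At 2 kPa 6 were higher and 1 lower on viscoelastic gels, beside 8.77% and 11.1% of all genes. Cars was raised by 0.45 ± 0.10 in both comparisons, and Vars was lower on viscoelastic gels at 2 kPa (-0.26 ± 0.06) and at 20 kPa (-0.32 ± 0.06). Sars, which charges serine, was the 1 synthetase raised by the viscoelastic gel at 20 kPa (0.15 ± 0.05, edgeR adjusted p = 0.0357). Of the 12 amino acid carriers, none was higher and 6 were lower on viscoelastic gels at 20 kPa, beside 17.4% and 16.1% of all genes. At 2 kPa 1 carrier was higher and none lower on viscoelastic gels, beside 8.77% and 11.1%. On elastic gels 3 carriers were higher and none lower at 20 than at 2 kPa, beside 6.81% and 7.14%. Slc7a5, the large neutral amino acid carrier LAT1, stood at 42.4 CPM on 2-kPa elastic, 60.1 CPM on 20-kPa elastic, 39.6 CPM on 2-kPa viscoelastic and 41.0 CPM on 20-kPa viscoelastic gels. Slc7a6 was lower on viscoelastic gels at 20 kPa (-0.47 ± 0.06) and fell by 0.27 on the log2 scale with stiffness on viscoelastic gels, while Slc7a3 was higher on viscoelastic gels at 2 kPa (0.76 ± 0.24) at a level under 2 CPM, and Slc38a1 lower at 20 kPa (-0.75 ± 0.21).

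The list of further stress outputs held 13 tested genes (Fgf21 was under the filter). On viscoelastic gels 4 were higher and 1 lower at 2 kPa, beside 8.77% and 11.1% of all genes. At 20 kPa 5 were higher and 1 lower, beside 17.4% and 16.1% of all genes. Stc2, a secreted glycoprotein, showed the largest difference, from 4.07 to 11.8 CPM at 2 kPa (1.54 ± 0.18, edgeR adjusted p = 8.18e-05) and from 6.63 to 15.2 CPM at 20 kPa (1.19 ± 0.17, edgeR adjusted p = 0.0002). Sesn1, a relative of Sesn2, was highest on 2-kPa elastic gels (25.6 CPM) and fell by 0.43 on the log2 scale with stiffness on elastic gels. On viscoelastic gels it was lower at 2 kPa (-0.21 ± 0.06, edgeR adjusted p = 0.0294) and higher at 20 kPa (0.34 ± 0.06, edgeR adjusted p = 0.00101). Its effect of stiffness differed between gels by 0.55 ± 0.09 (edgeR adjusted p = 0.00162), the opposite direction to the members. Tnfrsf10b, a death receptor, was lower on viscoelastic gels at 20 kPa (-0.32 ± 0.07).

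The 19 genes of the other arms of the unfolded protein response, ATF6 and XBP1, were taken for comparison. None was higher and 4 were lower on viscoelastic gels at 2 kPa, beside 8.77% and 11.1% of all genes, and at 20 kPa 1 was higher and 6 were lower, beside 17.4% and 16.1%. None was called by edgeR for stiffness on elastic gels, where 6.81% of all genes were higher and 7.14% lower. Hyou1, an endoplasmic reticulum chaperone, was lower on viscoelastic gels at 2 kPa (-0.36 ± 0.08, edgeR adjusted p = 0.00501) and at 20 kPa (-0.38 ± 0.08). Edem1, which directs misfolded glycoproteins to degradation, was lower at 20 kPa (-0.46 ± 0.07), and Sec61b, a translocon subunit, was higher there (0.25 ± 0.06). Whether the lists differed from one another was not tested.

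**Figure D4:**
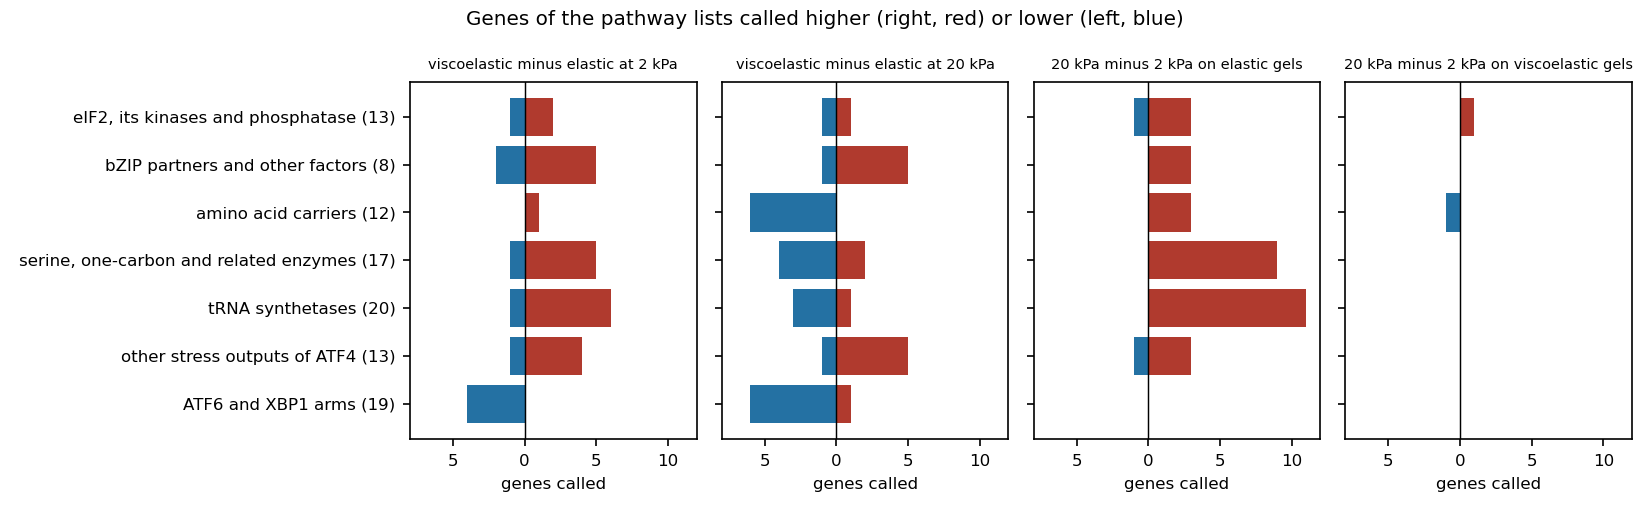
Number of genes called by edgeR's test in each list (x axis, genes called higher to the right and lower to the left) in the 4 comparisons of 2 groups; the number tested is given beside each list name. The tRNA synthetase bar reaches 11 genes for stiffness on elastic gels, and the carrier bar 6 lower for the gel type at 20 kPa.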

How the data were processed

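Poly-A RNA-seq was available for 12 samples in 4 groups of 3, grouped by the labels. The authors deposited raw counts per gene. Per the labels and the study's methods, reads were trimmed with Trimmomatic, aligned to mm10 with STAR and counted with featureCounts on a GENCODE annotation; its release and the strand and multimapping settings are not given in the sources used here. The members and pathway lists were chosen with earlier results of these data known.

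Genes were kept with edgeR's filterByExpr (minimum count 10, minimum total 15), leaving 14542 of 33246. Counts were scaled by TMM and fitted with edgeR 4.0.16 (quasi-likelihood, R 4.3.3), with 1 coefficient per group over all 12 samples (common biological CV 7.50%). P-values were adjusted by Benjamini-Hochberg over all tested genes, and below 0.05 counts as called. CPM are counts divided by the TMM-scaled library total and multiplied by 1000000. Correlations used log2 CPM with a prior count of 2. Gene positions and exon lengths came from GENCODE M21 (mm10), with 29212 symbols matched. Near copies were transcripts of other genes with an alignment of 100 bases or more at 95% identity.

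The genes named are the 10 members, from each list the called gene with the largest log2 change in each direction in each comparison of 2 groups, and the 5 genes most like the members and the 5 most like Asns. The alternatives were 2 other scalings, no filter, DESeq2 1.42.0, a fit of the 2 groups compared, the replicate number as a block, offsets for exon length and GC content, both together, and leaving out each sample. The main, block, offset and DESeq2 fits were tested on simulated data for the gel type at 2 kPa alone, with genes drawn independently. The interaction was not simulated. Intervals and CVs from counts cover counting error only, since the reads carry no molecular identifiers. The authors' own comparisons were not used.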

Additional observations from a re-analysis of the deposited data

Results flagged for a closer look

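The effect of stiffness differed between gel types in 4 of the 10 genes by edgeR's test of the interaction. All 4 differences were below 0, a direction in which 3.12% of all genes were called. Each of these genes was picked out because the difference of effects itself passed. For Trib3 the log2 effect of 20 against 2 kPa was 0.60 ± 0.10 (SE) on elastic and -0.25 ± 0.10 on viscoelastic gels, a difference of -0.847 (edgeR adjusted p = 0.00171). For Psat1 the effects were 0.67 ± 0.10 and 0.16 ± 0.10, a difference of -0.51 (edgeR adjusted p = 0.0415). For Phgdh they were 0.57 ± 0.09 and 0.12 ± 0.09, a difference of -0.456 (edgeR adjusted p = 0.0405). For Shmt2 they were 0.47 ± 0.07 and 0.03 ± 0.07, a difference of -0.445 (edgeR adjusted p = 0.0133). Trib3 and Shmt2 were called in each of the 12 omissions of 1 sample, and Psat1 and Phgdh in 4. With the replicate number as a block, Psat1 and Phgdh did not pass (edgeR adjusted p = 0.0693 and 0.0683).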

How the results depend on the processing

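Of the 60 fitted differences (10 genes in 6 comparisons), 51 to 59 kept their direction and side of the threshold under each alternative that used all 12 samples. In fits of the 2 groups compared 39 of 40 did, and over the omissions of 1 sample 644 of 720 did. The replicate numbers did not pair the samples: deviations of same-numbered samples correlated between -0.2 and 0.308, in none of the 6 pairs of groups was every correlation above 0.1, and in 7 of 36 combinations of a sample with another group the best correlation was with its own number. With the replicate block the interaction called 2 members in place of 4, as it did with the block and length and GC offsets together, and the gel type at 2 kPa called 7 in place of 9, without Psat1 and Sesn2 (6 with the offsets too, where Psat1, Phgdh and Ddit3 were not called and Ddit3 was at 0.196). With block and offsets, 5 of the 30 neighbouring pairs of means differed, in place of 9. Length and GC offsets gave 11 carriers called in any comparison, in place of 7. Not-called differences changed sign for Trib3 for the gel type at 20 kPa (-0.034 with offsets, -0.030 with offsets and block), Ddit3 for stiffness on elastic gels (-0.040 and -0.041) and Shmt2 for the mean gel effect (0.021 with total counts alone). The cause was not tested.

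Leaving out 1 sample gave 5 to 10 members called for the gel type at 2 kPa, 1 to 3 at 20 kPa, 6 to 8 for stiffness on elastic and 0 on viscoelastic gels, 6 to 7 for the mean gel effect and 2 to 6 for the interaction, and 5 to 10 neighbouring pairs (5 without 2-kPa elastic replicate 3 or 20-kPa elastic replicate 2). It gave 4 to 7 genes of the eIF2 list, 5 to 7 partner factors, 4 to 9 carriers (4 without 20-kPa elastic replicate 3), 9 to 11 enzymes, 6 to 15 synthetases (6 without 2-kPa elastic replicate 1 and 9 without 20-kPa elastic replicate 3), 7 to 9 stress outputs and 7 to 10 genes of the ATF6 and XBP1 list. Log2 differences that changed sign ranged, for the gel type at 20 kPa, from -0.008 to 0.108 in Trib3, -0.002 to 0.1 in Sesn2 and -0.01 to 0.087 in Aldh18a1. They ranged from -0.02 to 0.081 for stiffness on elastic gels in Ddit3, from -0.017 to 0.076 on viscoelastic gels in Shmt2, and for the mean gel effect from -0.008 to 0.112 in Psat1 and -0.045 to 0.012 in Shmt2. None of these was called.

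Over all genes, stiffness on viscoelastic gels called 331 genes, against 769 with DESeq2's Wald test, 653 without the filter, 171 with the offsets, 154 with the block, 77 with both and 38 in a fit of the 2 groups compared, with 9 to 36 without 20-kPa viscoelastic replicate 3 or 1. Scaling by total counts moved the share of calls that were higher from 44.1% to 57.1% for the gel type at 2 kPa and from 51.9% to 60.7% at 20 kPa. At the lowest member count, 165, counting alone gave a CV of 7.78%. Between samples the CV of Chac1 was 25.1% on 2-kPa elastic and 5.25% on 2-kPa viscoelastic gels. Its SE was the largest of the members (0.17 for the gel type at 2 kPa), so small differences in Chac1 were the least detectable.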
